A study of Homo sapiens with 16 samples.

Results

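A pair of histone marks of opposite association, H3K4me3 and H3K9me2, were compared by position along the autosomes of MDA-MB-231, a human line that was established from a metastasis of a breast cancer. The comparison used 4 of the 16 samples of the series, which were chosen from the labels: 2 H3K4me3 and 2 H3K9me2 immunoprecipitates of this line, called biological replicates there. The series is a chromatin immunoprecipitation and sequencing (ChIP-seq) study of 3 histone H3 modifications in MDA-MB-231 and in the breast epithelial line MCF-10A, which does not form tumours, and its title places it in work on DNA attached to the nuclear matrix. Both lines came from stocks kept in the laboratory and were harvested before confluence, with no drug or genetic change named, and the antibodies against H3K4me3 and H3K9me2 were both mouse monoclonals. H3K27me3 of MDA-MB-231 and H3K9me2 of MCF-10A, with 2 replicates each, served as comparisons. The 4 input samples have no peak list and were not analysed here.

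Trimethylation of lysine 4 of histone H3 is laid down by enzymes of the SET1 and MLL families and marks the start sites of active and poised genes, mostly as narrow peaks at CpG-rich promoters. Dimethylation of lysine 9 is laid down mainly by the G9a and GLP methyltransferases, is found over silent chromatin in broad domains and is known for its abundance at the nuclear periphery. The marks are generally regarded as mutually exclusive at promoters. ChIP-seq of a cell population records where each mark is enriched on average. Peaks of both marks at 1 position therefore do not tell whether they lay on the same nucleosome, allele or cell.

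The autosomal lists held 16008 and 15642 H3K4me3 peaks, which covered 20.97 and 21.04 Mb. The H3K9me2 lists held 6086 and 4980 peaks, which covered 15.1 and 10.4 Mb. H3K9me2 peaks were wider, with medians of 2200.5 and 1873.5 bp against 1217 and 1254 bp. The Jaccard index of covered bases, the share of bases covered in either list that both cover, was 0.801 between the H3K4me3 replicates and 0.354 between the H3K9me2 replicates. Merged peaks found in both replicates gave 13867 H3K4me3 regions, used as the reference for all distances, and 3034 H3K9me2 regions, of 15909 and 7846 regions found in either replicate. The lists hold no read counts, so the depth behind a peak is unknown, and so is whether a stretch without a peak lacked the mark or the reads. Copy number was not measured, and its part in the number of peaks per chromosome cannot be told apart from the mark. All positions are on hg19 and count from 1. No gene is named and no sequence is shown, because no annotation or genome of that build was used here, and for the same reason the identity of the line was not checked against marker genes.

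H3K9me2 and H3K4me3 hardly shared sequence. In replicate 1, 29 of 6086 H3K9me2 peaks (0.477%, exact 95% Clopper-Pearson interval 0.319% to 0.684%) touched an H3K4me3 region by at least 1 bp. In replicate 2, 27 of 4980 peaks did (0.542%, interval 0.358% to 0.788%), so the mean was 0.509% ± 0.0464 (SD, n = 2). These intervals cover counting error only. Across the 4 pairings of an H3K9me2 with an H3K4me3 list, 15.9 to 17.6 kb were shared. That is 0.106% to 0.169% of the H3K9me2 bases, 0.0757% to 0.0838% of the H3K4me3 bases, and a Jaccard index of 0.000446 to 0.00056. Most overlaps were partial. The share expected from the widths alone was not worked out, so no preference for borders can be read from the following counts. Of the overlapping H3K9me2 peaks, 24 and 21 crossed an edge of an H3K4me3 region, 3 and 4 contained a whole region, and 2 and 2 lay within one. The median overlap was 373 and 413 bp, or 15.7% and 18.8% of the H3K9me2 peak, and a requirement that at least 50% of the peak overlap left 0.0730% ± 0.0103 (SD, n = 2) of peaks.

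H3K9me2 was depleted in steps that ran from the H3K4me3 regions outward to about 20 kb. Every base of the mapped autosomal territory, 2478 Mb, was put in 1 of 7 classes by its distance from the nearest H3K4me3 region. The share of a class covered by H3K9me2 was then divided by the share of the whole territory, which was 0.610% in replicate 1 and 0.421% in replicate 2. Inside H3K4me3 regions this density ratio was 0.127 and 0.177 (mean 0.152 ± 0.0355, SD, n = 2), or 6.59-fold below the territory. This size depends on the peaks used: it was 0.299 with H3K9me2 peaks of a score of at least 100 and 0.0643 without chromosomes 1 and 9. It was 0.274 and 0.367 within 1 kb of a region (mean 0.320 ± 0.0658) and 0.470 and 0.558 at 1 to 5 kb (mean 0.514 ± 0.0628). At 5 to 20 kb it was 0.740 and 0.786 (mean 0.763 ± 0.0321). In each of these 4 classes both replicates lay below 1, and each mean lay below the next by more than the SD of either class.

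Farther out, H3K9me2 was slightly denser than in the territory as a whole. The ratio was 1.09 and 1.18 at 20 to 100 kb and 1.20 and 1.11 at 100 kb to 1 Mb, and these classes differed by less than the spread between replicates. Beyond 1 Mb, where 5.56% of the territory lies, it was 0.0884 and 0.0998. The cover of each class was also set against that of the same 1 Mb bins. On this local scale the ratio was 0.104 ± 0.0200 inside, 0.221 ± 0.0363 within 1 kb, 0.363 ± 0.0299 at 1 to 5 kb and 0.586 ± 0.00592 at 5 to 20 kb, so the depletion near H3K4me3 was deeper against the local surroundings than against the territory. It was 1.01 ± 0.0429 at 20 to 100 kb, within its spread of 1, and 1.31 ± 0.0260 at 100 kb to 1 Mb. Beyond 1 Mb it was 0.874 ± 0.0755 (SD, n = 2), but bases so far from H3K4me3 can fill a whole bin, which is then compared with itself, so this value says little.

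**Figure D1:**
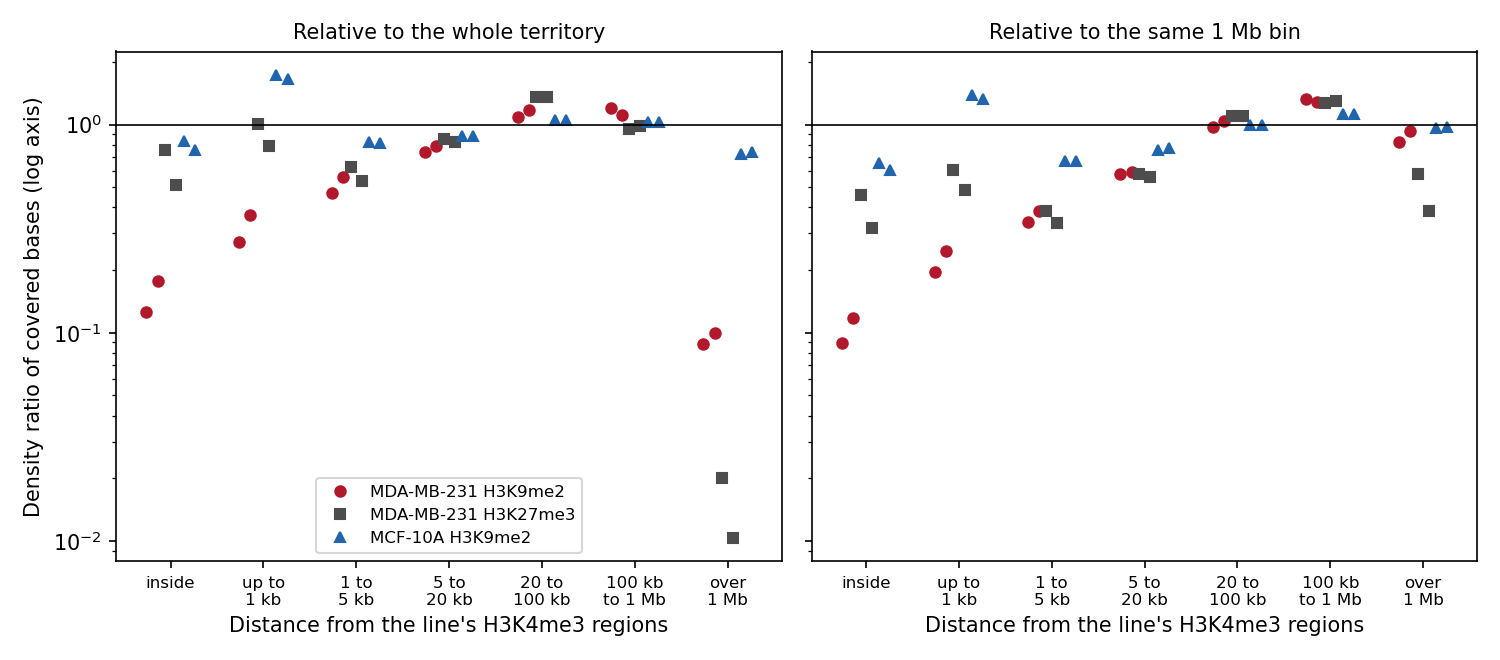
Density ratio of covered bases (log axis) in 7 classes of distance from H3K4me3 regions, relative to the whole territory (left) and to the same 1 Mb bin (right); each point is 1 replicate and the line marks a ratio of 1. On the left, MDA-MB-231 H3K9me2 climbs from 0.127 and 0.177 inside to above 1 between 20 kb and 1 Mb, and drops to 0.0884 and 0.0998 beyond. In both panels it lies below both comparison groups inside and within 1 kb.

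Within the H3K4me3 regions the cover also fell with depth, though it rests on few bases. In the outer 250 bp of the regions, 0.111% and 0.103% of bases were covered by H3K9me2. At 250 to 500 bp from the edge the cover was 0.0820% and 0.0773%, and at 500 to 1000 bp it was 0.0524% and 0.0558%. Deeper than 1000 bp it was 0.0355% in both replicates, which is only 0.716 kb in each. All cover inside the regions came to 17.3 and 16.7 kb, with 63.6% and 64.0% of it on chromosomes 1 and 9. Outside, the first 500 bp had a cover of 0.149% and 0.142%. The cover was 0.288% and 0.213% at 1.5 to 2 kb, and 0.490% and 0.359% at 9.5 to 10 kb. Up to 20 kb, replicate 1 stayed below its territory mean of 0.610% and replicate 2 below its mean of 0.421% in all steps of 500 bp. Replicate 1 had dips and rises between 10 and 20 kb that replicate 2 did not share in size.

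**Figure D2:**
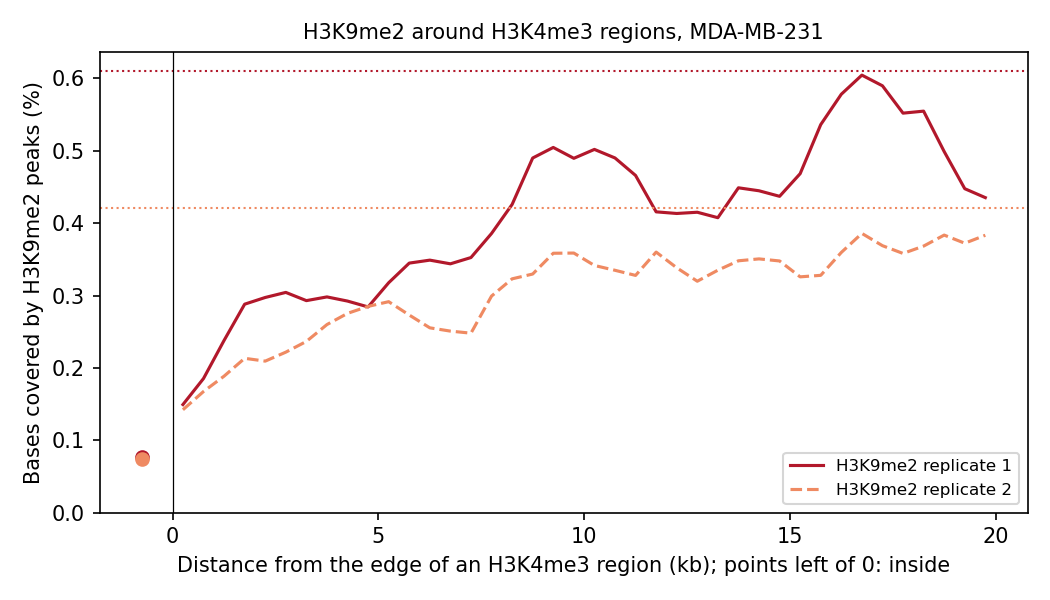
Percent of bases covered by H3K9me2 peaks in steps of 500 bp from the edge of H3K4me3 regions, for each H3K9me2 replicate; points left of 0 give the inside of the regions, and dotted lines give each replicate's mean over the territory. Both lines start near 0.15% at the edge and remain below their own mean out to 20 kb.

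Seen from the other mark, H3K4me3 was likewise sparse on and near H3K9me2. With distances measured from the 3034 H3K9me2 regions, the density ratio of H3K4me3 was 0.214 ± 0.00167 (SD, n = 2) inside them, 0.467 ± 0.00796 within 1 kb and 0.517 ± 0.0216 at 1 to 5 kb. It reached 1.33 ± 0.0193 at 20 to 100 kb and 1.34 ± 0.00164 at 100 kb to 1 Mb. Beyond 1 Mb from any H3K9me2 region, which is 1255 Mb of the territory, the ratio was 0.717 ± 0.00333. Relative to the same 1 Mb bins, the ratio was 0.142 ± 0.000536 inside, 0.326 ± 0.00238 within 1 kb, 0.361 ± 0.0118 at 1 to 5 kb and 0.597 ± 0.00581 at 5 to 20 kb. On that scale it was 0.938 ± 0.00646 at 20 to 100 kb, below 1 rather than above it, 1.09 ± 0.00242 at 100 kb to 1 Mb and 0.9904 ± 0.000545 beyond. The sparsity within 20 kb was thus present on both scales, and the excess at 20 to 100 kb only on the scale of the territory.

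Distances of H3K9me2 peaks to H3K4me3 departed from those of the territory at both the near and the far end. The median distance, edge to edge, was 113.9 kb in replicate 1 and 105.4 kb in replicate 2 (mean 109.6 ± 6.02 kb, SD, n = 2). The nearest 10% of peaks lay within 17.01 and 15.67 kb, and the farthest 10% beyond 366 and 361 kb. Over 100 kb away were 54.5% of peaks in replicate 1 and 51.7% in replicate 2, close to the 50.7% of the territory there. That share pools opposite departures. At 100 kb to 1 Mb lay 54.0% and 51.2% of peaks, on 45.2% of the territory. Beyond 1 Mb lay 0.509% and 0.582% of peaks, on 5.56% of the territory. At the near end, 175 (2.88%) and 159 peaks (3.19%) overlapped a region or lay within 5 kb, where 5.93% of the territory lies. The distance classes from inside outward held 29, 23, 123, 537, 2058, 3285 and 31 peaks in replicate 1. In replicate 2 they held 27, 19, 113, 476, 1768, 2548 and 29. The peaks on H3K4me3 regions were found in both replicates more often than the rest. Of those inside, 79.3% and 81.5% overlapped a peak of the other replicate, against 48.3% and 63.3% of those at 100 kb to 1 Mb, and this difference was not tested.

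The gaps between neighbouring H3K4me3 regions held H3K9me2 more often the longer they were. There were 13845 such gaps, with a median length of 62.0 kb. At least 1 bp of an H3K9me2 peak lay in 1.19% and 1.25% of gaps shorter than 20 kb. The share was 15.9% and 15.7% for gaps of 100 to 200 kb, and 46.2% and 43.1% for gaps of 500 to 1000 kb. Longer gaps have more room for a peak, and no allowance for length was made in these shares. Above 1000 kb the share was 51.0% and 48.6%. Within gaps of up to 1000 kb, the midpoints of H3K9me2 peaks lay somewhat nearer the centre than the edge. Their medians were 52.3% to 60.5% of the way from edge to centre. The width of a peak that does not overlap H3K4me3 keeps its midpoint off the edge, which raises the median most in short gaps. No allowance for this was made. In gaps above 1000 kb the median was 31.9% in both replicates, so there the peaks lay in the outer part of the gap. These gaps were taken whole, with the stretches of at least 1 Mb without any peak that the territory leaves out. The part of such stretches in this position was not tested.

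**Figure D3:**
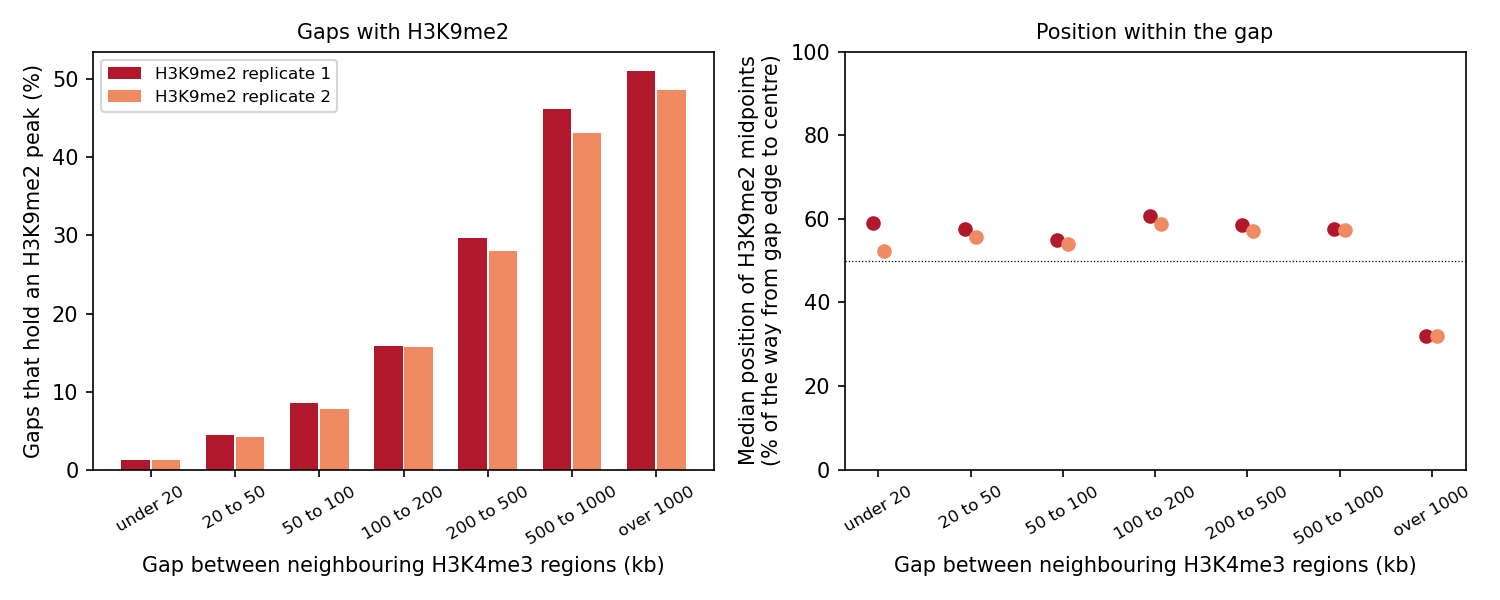
Left, percent of gaps between neighbouring H3K4me3 regions that hold at least 1 bp of an H3K9me2 peak, by gap length in kb. Right, median position of H3K9me2 peak midpoints as a percent of the way from gap edge (0) to gap centre (100), with a dotted line at 50. The share climbs from 1.19% and 1.25% to 51.0% and 48.6%, and the position drops to 31.9% in gaps above 1000 kb.

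H3K4me3 regions that carried H3K9me2 were rare and more frequent where the H3K4me3 score, the authors' own value per peak, was low. Of 13867 regions, 30 carried H3K9me2 in replicate 1, 27 in replicate 2 and 22 in both (0.159%, interval 0.0995% to 0.240%). In the quartile of regions with the lowest score, 11 carried it in both replicates (0.317%). The next quartiles held 5, 3 and 3 such regions (0.144%, 0.0865% and 0.0865%). Quartiles by width held 5, 6, 4 and 7 from narrow to wide, with no such order. These counts were not tested, since regions are not replicates. Of the 22 regions, 19 also had H3K4me3 in both MCF-10A replicates (86.4%, against 88.8% of all regions), and 12 had H3K9me2 in both MCF-10A replicates (54.5%, against 1.28% of all regions). All of these 12 were among the 19, so both marks were called there in both lines. The 22 regions were picked for H3K9me2 in MDA-MB-231, so all H3K4me3 regions are an unlike background for that mark. Of all 3034 replicated H3K9me2 regions of MDA-MB-231, 31.7% had H3K9me2 in both MCF-10A replicates.

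These 22 regions were unevenly spread. Chromosome 1 held 8 of them, chromosome 9 held 3, chromosomes 3, 4, 6 and 20 held 2 each, and chromosomes 12, 16 and 19 held 1 each. On chromosome 1, 6 regions fell in a single stretch of 159.3 kb, chr1:161417266-161576599, which was singled out after its values were seen. The first 4 began 6.90, 7.62 and 7.27 kb apart, and the gaps to the following starts were 54.5 and 82.2 kb. H3K9me2 covered 22.6% and 16.7% of this stretch, H3K4me3 covered 8.16% and 8.70%, and the MCF-10A lists covered 15.4% and 12.9% with H3K9me2 and 10.7% and 11.2% with H3K4me3. It held 23.1% and 26.7% of all H3K9me2 bases inside H3K4me3 regions. Chromosomes 1 and 9 together held 63.6% and 64.0%, and without them the density ratio inside H3K4me3 regions was 0.0643. Near-identical copies of a sequence can share reads, the sources used here do not say how such reads were placed, and their part in these overlaps was not tested. Of the 22 regions, 5 lay within 5 Mb of the longest peak-free stretch of their chromosome (22.7%, against 8.37% of all H3K4me3 regions).

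All 4 libraries covered 23 stretches, 11.7 kb in total, with a median of 380 bp. The 5 longest were chr9:67790662-67792341 (1680 bp), chr9:44992127-44993582 (1456 bp), chr1:148927840-148929080 (1241 bp), chr9:66457655-66458854 (1200 bp) and chr4:190942559-190943376 (818 bp). All 5 also carried H3K4me3 in both MCF-10A replicates, over 63.7% to 100% of their length. In MDA-MB-231, both H3K27me3 replicates covered chr9:67790662-67792341, over 73.6% and 71.2% of its length. Replicate 2 alone covered chr9:44992127-44993582 over 77.5%, chr1:148927840-148929080 over 97.3% and chr9:66457655-66458854 over 79.5%. The stretch on chromosome 4 carried no H3K27me3 there. H3K9me2 of MCF-10A was not listed on chr9:67790662-67792341 or chr9:44992127-44993582. It covered chr1:148927840-148929080 over its whole length in both replicates, and chr9:66457655-66458854 over 100% and 89.1%. On the stretch of chromosome 4 it was listed in replicate 2 alone, over 100%.

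Close neighbours of the marks were rare. Of the 3034 replicated H3K9me2 regions, 14 lay outside an H3K4me3 region but within 1 kb of it. The widest was chr19:58964440-58968839, which spanned 4400 bp, ended 468 bp from H3K4me3 and was covered over 98.8% and 98.7% by the replicates. The second, chr19:36332310-36335597, spanned 3288 bp at a distance of 481 bp, and both MCF-10A H3K9me2 lists covered all of it. At chr11:45904094-45907089, a region of 2996 bp, the marks were 31 bp apart. None of the 5 widest carried H3K4me3 in MCF-10A, and 4 of the 5 carried no MCF-10A H3K9me2. Of all 3034 regions, 0.857% had H3K4me3 and 31.7% had H3K9me2 in both MCF-10A replicates, so these few counts show nothing particular to the 5.

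The widest replicated H3K9me2 region of all, 18574 bp, lay 20 to 100 kb from H3K4me3. Of the 5 widest replicated regions over 100 kb from the nearest H3K4me3 region of either replicate, 4 lay between chr6:40243163 and chr6:40720465. The widest, chr6:40705347-40720465 (15119 bp, 274.4 kb from H3K4me3), was covered fully by replicate 1 but over only 6.61% by replicate 2. The second, chr17:36283856-36298829 (14974 bp, 112.7 kb away), was covered over 100% and 86.9%, and also carried H3K27me3 over 28.8% and 73.8% and MCF-10A H3K9me2 over 33.5% and 25.8%. The third, chr6:40432941-40447467 (14527 bp, 530.4 kb away), was covered over 100% and 70.8%. In all 4 regions on chromosome 6, replicate 1 covered more of the length than replicate 2.

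The shares of replicated H3K9me2 regions with other marks varied by distance from H3K4me3, with no single order, and the nearest classes held few regions. Among the 24 that overlapped H3K4me3, 50% (interval 29.1% to 70.9%) had H3K9me2 in both MCF-10A replicates, and among the 14 within 1 kb, 28.6% (interval 8.39% to 58.1%) did. Among the 67 regions at 1 to 5 kb, 64.2% (interval 51.5% to 75.5%) did. The share was 44.0% of 282 at 5 to 20 kb, 35.5% of 1085 at 20 to 100 kb and 25.2% (interval 23.02% to 27.40%) of 1550 at 100 kb to 1 Mb. H3K27me3 of MDA-MB-231 was found in both of its replicates on 16.9% of all 3034 regions. It was on 1 of the 24 regions inside (4.17%, interval 0.105% to 21.1%) and 1 of the 14 within 1 kb (7.14%, interval 0.181% to 33.9%). Both intervals include the share of all regions. It was on 2.99% (interval 0.364% to 10.4%) of the regions at 1 to 5 kb, 14.5% at 5 to 20 kb, 18.5% at 20 to 100 kb and 17.3% at 100 kb to 1 Mb. The H3K27me3 replicates differed in number, with 8408 and 30238 peaks. In the larger alone the shares were 29.2% inside, 28.6% within 1 kb, 17.9% at 1 to 5 kb and 46.5% at 100 kb to 1 Mb. Regions are not replicates, so the intervals cover counting error only and no test was made between the classes. The median width of the regions was similar from inside (2564.5 bp) to 100 kb to 1 Mb (2484 bp).

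H3K27me3 of the same line, measured against the same H3K4me3 regions, was less depleted inside them and within 1 kb. Its density ratio was 0.758 and 0.515 inside, against 0.127 and 0.177 for H3K9me2, and 1.01 and 0.787 within 1 kb, against 0.274 and 0.367. The groups did not overlap in either class. At 1 to 5 kb they did overlap, with a mean of 0.581 for H3K27me3 and 0.514 for H3K9me2. Relative to the same 1 Mb bins, the means were 0.361 for H3K27me3 and 0.363 for H3K9me2 at 1 to 5 kb. At 5 to 20 kb they were 0.570 and 0.586 on that scale. Of H3K27me3 peaks, 0.951% ± 0.320 (SD, n = 2) touched an H3K4me3 region, and their median distance was 85.6 ± 1.42 kb, shorter than the 109.6 kb of H3K9me2.

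MCF-10A H3K9me2, measured against the H3K4me3 regions of MCF-10A, had a different profile close to the regions. Its density ratio was 0.832 and 0.752 inside and 1.74 and 1.65 within 1 kb. In MDA-MB-231 the ratio within 1 kb was 0.274 and 0.367, so the lines fell on opposite sides of the territory mean. At 1 to 5 kb the MCF-10A ratio was 0.817 on average and at 5 to 20 kb 0.883, against 0.514 and 0.763 in MDA-MB-231. In MCF-10A 2.77% ± 0.121 (SD, n = 2) of H3K9me2 peaks touched an H3K4me3 region, against 0.509% ± 0.0464. The median distance was nearly the same, 104.0 ± 0.783 kb against 109.6 ± 6.02 kb. Over the 7 classes and 3 summary measures in both comparisons, 20 two-sided exact permutation tests were made. In 19 of them the groups did not overlap, p was 0.333, the smallest that 2 against 2 libraries allow, and the Benjamini-Hochberg value was 0.351. The other, H3K27me3 at 1 to 5 kb, had an exact permutation p of 0.667, and no test of this size can pass 0.05.

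At the scale of 1 Mb the marks went together, although they avoided each other at the scale of kilobases. The 2484 bins of the territory were divided into 5 groups by their H3K4me3 cover. H3K9me2 covered 0.195% and 0.133% of the bins poorest in H3K4me3 (up to 0.139% covered) and 0.972% and 0.725% of the richest (1.41% to 7.54% covered). The means of the groups, in order, were 0.164% ± 0.0442, 0.422% ± 0.130, 0.477% ± 0.139, 0.653% ± 0.176 and 0.848% ± 0.175 (SD, n = 2). Each replicate climbed through all 5 groups. The SDs reflect the larger total cover of replicate 1. Without any H3K9me2 were 360 and 363 of the 497 poorest bins (72.4% and 73.0%), against 164 and 169 of the 497 richest. With cover expressed relative to the bin's own chromosome, the poorest group was at 0.348 ± 0.00248 and the richest at 1.36 ± 0.0554.

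**Figure D4:**
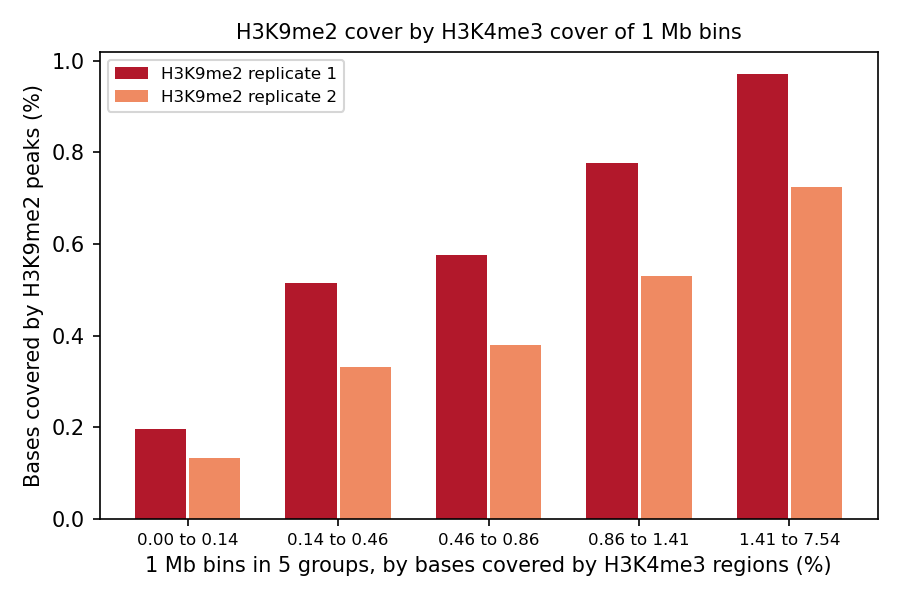
Percent of bases covered by H3K9me2 peaks in 1 Mb bins, in 5 groups of 496 or 497 bins ordered by percent of bases covered by H3K4me3 regions; bars are the 2 H3K9me2 replicates. Both replicates climb from the poorest group (0.195% and 0.133%) to the richest (0.972% and 0.725%).

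The share of each mark that fell in a bin was compared with limma on a log2 scale, after scaling each library to the same total cover. Of 2268 bins tested, 1068 had a higher share of H3K4me3 (47.1%) and 409 a higher share of H3K9me2 (18%) at a Benjamini-Hochberg adjusted p under 0.05. In 865 of the 1068 bins both H3K9me2 libraries were listed at 0, whereas H3K4me3 was listed at 0 in 59 of the 409. Of the bins tested, 867 had H3K9me2 listed at 0 in both, so nearly all of these were called. They entered the test only through H3K4me3 cover, and the 0 values have no spread. Their calls were thus nearly fixed in advance and say only that no H3K9me2 peak was listed. H3K9me2 cover was thus packed into fewer bins. Among the 960 bins covered in all 4 libraries, 202 had a higher H3K4me3 share and 337 a higher H3K9me2 share. The rule of cover in at least 2 libraries was kept when 1 library was left out. Without 1 H3K4me3 library, bins with H3K9me2 listed at 0 in both libraries were therefore covered too rarely and left the test. Bins with H3K4me3 listed at 0 in both left it likewise without 1 H3K9me2 library. The counts of these fits cannot show how far the calls depended on a library, and they are not given.

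The bins with the smallest p were those where the other mark was listed at 0 in both of its libraries, which leaves it no spread and so favours a small p. Such bins entered the test only through the mark that was listed, so the p-values here only rank them. H3K4me3 had 219.7 and 219.9 bp per Mb of its cover at chr4:47000001-48000000, 237.8 and 237.4 at chr12:22000001-23000000, and 263.6 and 263.7 at chr9:113000001-114000000, where H3K9me2 was listed at 0 (limma adjusted p = 2.35e-05 for each). H3K9me2 had 485.0 and 475.7 bp per Mb at chr11:15000001-16000000 and 497.9 and 510.9 at chr20:51000001-52000000, where H3K4me3 was listed at 0 (limma adjusted p = 2.35e-05 for each). At chr11:132000001-133000000 it had 436.1 and 416.6 bp per Mb (limma adjusted p = 2.36e-05).

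By chromosome, H3K9me2 peaks were far more uneven than H3K4me3 regions. Chromosome 20 held 718 and 561 H3K9me2 peaks, 12.7 and 9.90 per Mb, which is 11.8% and 11.3% of the peaks on 2.29% of the territory. Chromosome 11 held 11.7% and 10.9% on 4.72%. These 2 chromosomes held 7.89% of the H3K4me3 regions, close to their 7.01% of the territory. Chromosomes 13, 15, 16, 18, 21 and 22 together held only 2.73% and 3.01% of H3K9me2 peaks, on 13.7% of the territory and with 14.6% of the H3K4me3 regions. In the bin comparison, 33 of 57 bins on chromosome 20 and 53 of 111 on chromosome 11 had a higher H3K9me2 share, against 0 of 64 on chromosome 16 and 1 of 69 on chromosome 13.

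The ratio inside the H3K4me3 regions, relative to the same chromosome, was below 1 in both replicates on 22 of 22 autosomes. On 6 of them (13, 15, 16, 18, 21 and 22) H3K9me2 was so sparse that less than 1 median peak width would lie inside at the chromosome's own density, so a low ratio there shows no depletion. On the other 16 the ratio was below 1 in both replicates, and on 13 of these it was below 0.5 in both. It was 0 in both replicates on chromosomes 2, 5, 8, 10, 13, 14, 15, 18, 21 and 22. On chromosome 19, the richest in H3K4me3 with 19.6 regions per Mb, it was 0.0129 and 0.00600. The highest values were 0.975 and 0.816 on chromosome 16, which rest on 21 and 26 H3K9me2 peaks. Chromosome 9 had 0.702 and 0.819, chromosome 4 had 0.637 and 0.845, and chromosome 1 had 0.495 and 0.740. Within 1 kb of the regions the ratio was below 1 in both replicates on 19 autosomes and above 1 in both on chromosome 16. At 1 to 5 kb it was below 1 in both on 16 and above 1 in both on chromosome 2.

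**Figure D5:**
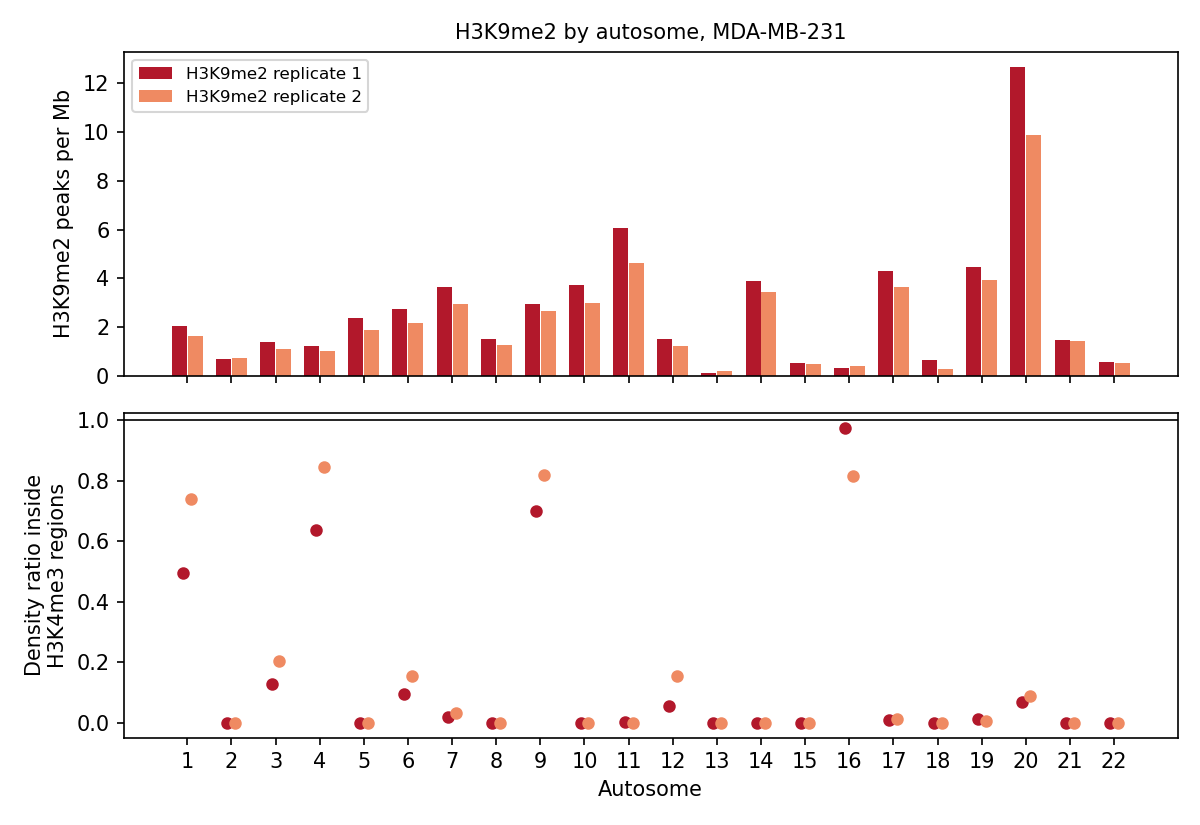
Top, H3K9me2 peaks per Mb of territory on each autosome; bottom, density ratio of H3K9me2 inside H3K4me3 regions relative to the same chromosome, with a line at 1; red and orange are the 2 H3K9me2 replicates. Chromosome 20 stands highest with 12.7 and 9.90 peaks per Mb, and on all 22 autosomes the ratio lies below 1 in both replicates, including 6 with too few H3K9me2 peaks to show a depletion.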

How the data were processed

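The deposited files are peak lists, 1 per replicate, with 5 columns that give position, name and score. The authors deposited the score without naming its scale, and here it only filtered or ranked peaks. The submitters' processing notes name hg19 as build and MACS 1.4, Bowtie2, CASAVA 1.6 and bedtools as tools, with no settings. How the inputs were used is not stated there. Per the labels' protocols, paired-end libraries were sequenced and replicates were combined for later work; the lists used here are per replicate.

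Peaks on chromosomes 1 to 22 were kept (1.71% to 3.72% of the 4 MDA-MB-231 lists of these marks were left out). Regions are merged peaks found in both replicates. The territory is the autosomal span of all lists without 133 stretches of at least 1 Mb that hold no peak (313 Mb). Group differences were tested by two-sided exact permutation over libraries. Bins of 1 Mb covered in at least 2 of the 4 libraries were tested with limma 3.58.1 (R 4.3.3; trend, empirical Bayes) on log2(covered bp per Mb of cover + 10), with Benjamini-Hochberg adjustment; the p-values measure the spread between replicates that the labels call biological. This compares shares of each mark, not levels. Other steps used Python 3.11.15, NumPy 2.4.6, SciPy 1.17.1 and statsmodels 0.14.6, and figures matplotlib 3.10.9. The distance and bin steps were tested on simulated data.

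Named were the 5 longest stretches covered by all 4 libraries, the 5 widest H3K9me2 regions within 1 kb of H3K4me3, the 5 widest over 100 kb away and the 3 bins with the smallest p per direction; the text gives a part of them. The lists, comparisons and classes were chosen with earlier results of these data known. Alternatives were other H3K4me3 references, score limits, overlap rules, reference territories, bin settings, the replicate number as a block, and each library left out.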

Additional observations from a re-analysis of the deposited data

Results flagged for a closer look

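Within 1 kb of H3K4me3 regions, H3K9me2 lay on opposite sides of the territory mean in the lines: the mean density ratio was 0.320 in MDA-MB-231 and 1.69 in MCF-10A, with both replicates of each line on its side (two-sided exact permutation p = 0.333, the smallest possible). Relative to the same 1 Mb bins the values were 0.221 and 1.36, a difference that was not tested. At 100 kb to 1 Mb in MDA-MB-231 the mean ratio was 1.16 for H3K9me2 and 0.965 for H3K27me3, again with both replicates of each mark on one side of 1 (two-sided exact permutation p = 0.333). Relative to the same bins both marks were above 1 at that distance.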

How the results depend on the processing

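The density ratios within 20 kb of H3K4me3 regions were below 1 and those from 20 kb to 1 Mb above 1 under every alternative run, although the local 1.01 ± 0.0429 at 20 to 100 kb is within its spread of 1. Leaving out each library in turn gave 0.127 to 0.177 inside, 0.740 to 0.824 at 5 to 20 kb and 0.0705 to 0.0998 beyond 1 Mb, an overlap of 0.477% to 0.566% and a median distance of 102.2 to 113.9 kb.

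With H3K9me2 peaks of a score of at least 100, the ratio was 0.299 inside, 0.587 at 1 to 5 kb, 0.848 at 5 to 20 kb, 1.26 at 20 to 100 kb, 1.04 at 100 kb to 1 Mb and 0.0637 beyond; the overlap was 1.11%, the median distance 91.0 kb, and 0.0505% of H3K4me3 regions carried H3K9me2 in both replicates. With all peaks, 0.252% of H3K4me3 regions carried H3K9me2 in either replicate. With H3K4me3 peaks of that score the ratio beyond 1 Mb was 0.120. Counting peak midpoints gave 0.101 inside and 0.248 within 1 kb. Relative to the same 1 Mb bin the ratios were 0.104, 0.221, 0.363, 0.586, 1.01, 1.31 and 0.874 from inside outward. Over the whole autosomal span, the values from 1 to 5 kb on were 0.578, 0.857 and 1.27, and 0.0467 beyond 1 Mb. With H3K4me3 of either replicate as the reference, the ratio was 0.831 at 5 to 20 kb and 0.0797 beyond 1 Mb, the overlap 0.637% and the median distance 95.8 kb. Leaving out stretches without an MCF-10A peak gave 0.0770 beyond 1 Mb. An overlap of at least 50% of the H3K9me2 peak was met by 0.0730% of peaks.

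Other alternatives were added after seeing the data. Without chromosomes 1 and 9 the ratio was 0.0643 inside and 0.240 within 1 kb. Without chromosomes 11 and 20 it was 0.815 at 5 to 20 kb and 0.111 beyond 1 Mb, and the overlap was 0.578%. Relative to the same chromosome these classes had 0.699 and 0.110. Without 5 Mb around the longest peak-free stretches and the chromosome ends, the ratio beyond 1 Mb was 0.0586.

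For bins with a higher H3K4me3 and H3K9me2 share, the counts were 3867 and 1131 in bins of 250 kb, 1708 and 183 with peaks scored 100 or more; unscaled cover gave 263 for H3K9me2. Leaving out each library gave 91 to 1545 and 246 to 554, and without either H3K4me3 library the H3K9me2 calls outnumbered those of H3K4me3. The replicate numbers are shared but do not pair the libraries (r = -0.0185 over bins), and with the number as a block the counts were 973 and 327. The cause of these changes was not tested. Depth is unknown, so the lists cannot tell a weak peak from a missed one.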
